A study of Mus musculus with 100 samples.

Results

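The 43 genes described here encode the extracellular matrix of fat and the enzymes that lay it down and cut it. They are 6 fibrillar collagens, 5 beaded-filament, network and fibril-associated collagens, 10 basement membrane proteins, 5 elastic-fibre and cross-linking proteins, 7 adhesive and matricellular glycoproteins, 4 small leucine-rich proteoglycans, 3 proteases and 3 protease inhibitors. All 43 were found, among 32484 genes with a chosen transcript, by matching the transcript rows of 5 deposited tables to gene symbols. The study sequenced RNA of mouse fat with and without GPS2, a protein of the corepressor complex around NCoR and SMRT, in adipocytes. In each table knockout samples were set against wild-type samples.

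Samples named HFD were intra-abdominal fat on high fat diet (4 knockout and 4 wild type), from mice aged 11 weeks, and the file name adds 4 weeks of feeding. Samples named CD were the same depot on chow at 19 weeks (3 knockout and 3 wild type). Epi samples were whole intra-abdominal fat (3 knockout and 3 wild type) and Adipo samples its adipocytes (2 knockout and 3 wild type), both from mice of 19 weeks and both filed under 12 weeks of high fat feeding. BA samples were inguinal fat of 8-week mice from the beta-adrenergic experiment (4 knockout and 4 wild type), for which no label names an agent. The knockout pairs floxed Gps2 alleles with Cre under the adiponectin promoter (Adipoq-Cre), which is active in adipocytes, so other cells of the fat keep the gene. The strain label is the same for every sample, and knockout and wild type are told apart only by the sample titles. The third Adipo sample labelled knockout was not analysed here, and a further wild-type column of that table (1) matches no sample and was not used.

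The matrix of fat has 2 main layers. Each adipocyte is wrapped in a basement membrane of type IV collagen, laminins, nidogens and perlecan, and between the cells runs an interstitial matrix of fibrillar collagens, type VI collagen, fibronectin and proteoglycans. Lysyl oxidases cross-link collagen and elastin, matrix metalloproteinases cut the matrix, and their tissue inhibitors (TIMPs) hold them back. Fat that expands in obesity remodels this matrix, with type VI collagen a well-known component of it. In whole fat much of the fibrillar collagen mRNA comes from fibroblasts and progenitor cells, while adipocytes also make basement membrane and type VI collagen.

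Recovered reads per sample, summed over the chosen transcripts, ranged from 29444602 to 63456837 over the 5 tables. Gps2, measured on its full-length transcript, was 390.4 ± 42.7 in knockout and 388 ± 27.1 in wild type in HFD (normalised reads, SD), and its log2 fold change lay between 0.0052 and 0.15 in the 5 tables. No source used here gives the deleted exons, so that transcript checks nothing and genotype below is that of the label. The 10 adipocyte markers summed to 258090.0 normalised reads or more in every sample, on the separate scale of each table. That lowest sum was of CD wild type 2, with 639148 to 990950 in the other CD samples. Summed fibroblast markers stood at 0.293% to 0.450% of the summed adipocyte markers of the same sample in Adipo knockout. Their share was 0.181% to 0.301% in Adipo wild type, 1.22% to 2.27% in Epi knockout and 1.94% to 2.88% in Epi wild type. Endothelial markers stood at 0.950% to 2.11% in Adipo knockout and 0.133% to 0.304% in Adipo wild type. In Epi they stood at 2.81% to 4.64% in knockout and 3.48% to 4.64% in wild type. Macrophage markers stood at 0.242% to 0.580% in Adipo knockout and 0.106% to 1.48% in Adipo wild type. In Epi those stood at 2.50% to 3.84% in knockout and 3.09% to 8.36% in wild type. Several libraries stood apart. Of 12 epididymis and testis markers the summed level was 155570.0 and 143295 in CD knockout 1 and 2 and 43748 in CD wild type 2, but at most 99.2 in the other CD samples. It was 105226 and 33016 in Epi knockout 2 and 3 and at most 36.8 in the other Epi samples. Summed smooth muscle markers were 290822 in CD wild type 2 and 12293 to 19504 in the other CD samples. CD knockout 1 and 2 were nearly alike, with a chi-square per degree of freedom of 2.41 between them. Libraries of 1 replicate gave at most 1.15, and every other pair of CD samples gave 41.6 to 291. The leading counts of CD and Epi, the shares of reads and the differences of effect are given below also without these libraries, on 1 knockout sample in each table, while single genes, classes and counts over several tables are given with them.

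Levels of different genes were compared per kilobase of transcript, within a table. Sparc, which encodes the collagen-binding glycoprotein osteonectin, was the highest member in all 5 tables. In Epi it stood at 79459.9 ± 13655 in knockout and 131228 ± 14152 in wild type (normalised reads per kb, SD, n = 3 and 3). There, by wild-type level, the proteoglycan decorin (Dcn) followed with 22134 ± 1089 in knockout and 23069.9 ± 4042 in wild type, then Col3a1, the type III collagen chain, with 12470.0 ± 3425 in knockout and 18989.5 ± 4906 in wild type. Col4a1, of the basement membrane, had 12798 ± 2016 in knockout and 17257 ± 3599 in wild type, and Col6a2 had 6233 ± 1294 in knockout and 13392 ± 4905 in wild type. In wild type Dcn, Col3a1 and Col4a1 lay within their spread of each neighbour, and in knockout Col3a1 and Col4a1 did. The lowest 5 members of Epi were Thbs2, Col8a1, Tnc, Col12a1 and the protease Mmp3, the last at 54.3 ± 16.2 in knockout and 88.5 ± 81.4 in wild type. In the wild-type samples of the HFD, CD, Epi and BA tables Dcn and Col3a1 were each among the 5 highest members.

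The adipocyte samples showed another order. In Adipo Sparc again led with 68320.0 ± 19069 in knockout and 132161 ± 20621 in wild type per kb (SD, n = 2 and 3), followed by Col4a1 with 12174 ± 71.0 in knockout and 12875 ± 1186 in wild type and the basement membrane collagen Col15a1 with 7270.1 ± 1871 in knockout and 10773 ± 1596 in wild type. Col6a2, with 4274 ± 966 in knockout and 10117 ± 2041 in wild type, and Col4a2, with 7903 ± 668 in knockout and 9301 ± 947 in wild type, came next. By wild-type level Dcn ranked 14 and Col3a1 ranked 11 of the 43 there, and Col1a1, of type I collagen, ranked 24 with 444 ± 139.6 in knockout and 375 ± 302 in wild type per kb. Fibronectin (Fn1) ranked 30 with 366 ± 117 in knockout and 188 ± 158 in wild type, the gelatinase Mmp2 ranked 38 with 104 ± 51.2 in knockout and 46.0 ± 44.8 in wild type, and the inhibitor Timp1 ranked 35 with 29.0 ± 21.2 in knockout and 61.8 ± 75.0 in wild type. Mmp3 did not reach the mean of 10 normalised reads needed for a test in CD or Adipo, so 42 members were tested in those 2 tables and 43 in each of the others.

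The level of 8 members is given below as the mean per kb in the order HFD, CD, Epi, Adipo and BA. The tables were normalised separately, so a level can be read against its neighbours in a table but not across tables. Col1a1 had 1014, 223, 2902, 444 and 727 in knockout and 695, 345, 3709, 375 and 659 in wild type. Col3a1 had 3719, 807, 12470.0, 3165 and 2289 in knockout and 3046, 1177, 18989.5, 2015 and 2341 in wild type, more than Col1a1 in every group. Col6a3, the longest type VI chain, had 229, 92.6, 824, 412 and 184 in knockout and 269, 147, 1672, 1068 and 232 in wild type. Col4a1 had 4604, 1730.3, 12798, 12174 and 2009.7 in knockout and 4527, 1602, 17257, 12875 and 1793 in wild type and stood above Col1a1 in every group. Fn1 had 723, 163, 2275, 366 and 119 in knockout and 593, 428, 4113, 188 and 140.1 in wild type. Sparc had 27230.3, 10801, 79459.9, 68320.0 and 13595 in knockout and 35726, 12416, 131228, 132161 and 11048 in wild type, the highest of these 8 genes in every group. Mmp2 had 284, 129.6, 1298, 104 and 389 in knockout and 218, 292, 1121, 46.0 and 409.9 in wild type. Timp1 had 99.6, 32.0, 211, 29.0 and 19.0 in knockout and 64.0, 42.7, 443, 61.8 and 17.9 in wild type, and in knockout and wild type of each table it was below Col1a1.

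Set against all genes, the 43 members held a small share of the summed normalised reads. Their share was 1.41% to 2.23% in Epi knockout and 2.42% to 3.39% in Epi wild type. It was 0.773% to 0.908% in CD knockout and 0.993% to 1.53% in CD wild type, and 1.47% to 1.86% in Adipo knockout and 1.93% to 2.37% in Adipo wild type. In those 3 tables every knockout sample lay below every wild-type sample. Without the libraries that stood apart 0.908% in CD knockout 3 faced 1.53% and 1.05% in CD wild type 1 and 3, and 1.41% in Epi knockout 1 lay below the same Epi wild-type samples. In HFD the share was 1.55% to 2.12% in knockout and 1.66% to 2.42% in wild type, and in BA 0.851% to 1.17% in knockout and 0.671% to 1.15% in wild type, with overlap in both. These shares weigh the most abundant transcripts, Sparc above all, and were not tested. In these bulk samples fewer cells of a type and less RNA per cell cannot be told apart.

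**Figure D1:**
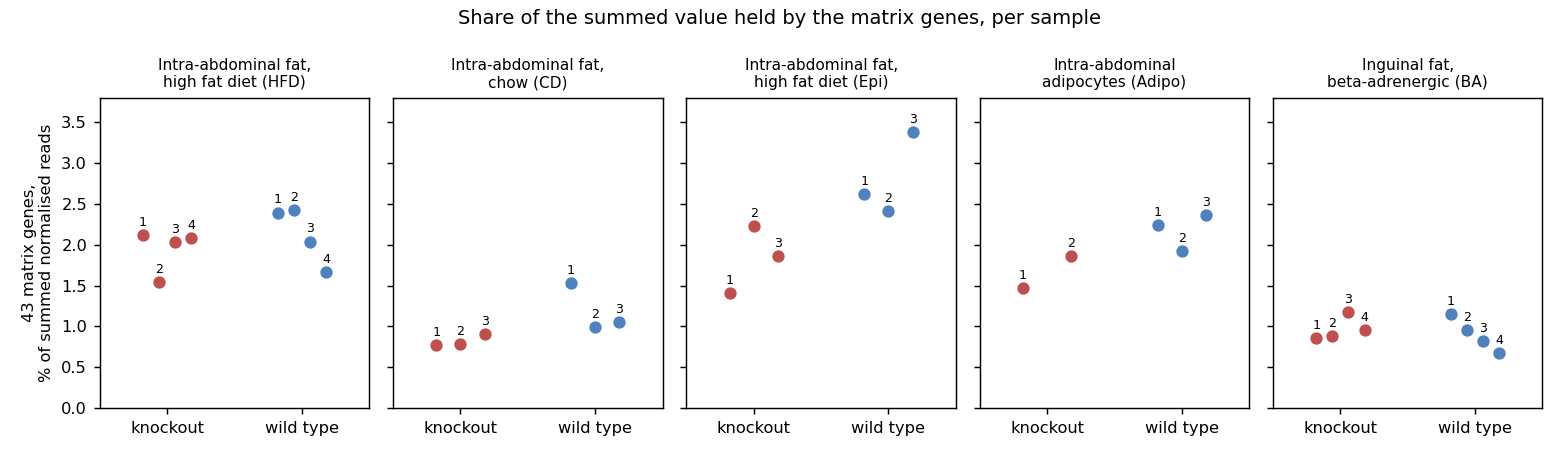
Percent of the summed normalised reads of each sample that the 43 matrix genes hold (y axis), by table, with knockout left of wild type, 1 point a sample and the replicate number above it. All knockout points lie below all wild-type points in CD, Epi and Adipo, with Epi wild type 3 highest at 3.39%.

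In the HFD samples of intra-abdominal fat, 4 of 43 members fell in knockout and 0 rose. They were Hspg2, Col18a1, Col6a1 and Thbs2, and 2.45% of all 14069 genes fell and 1.01% rose at the same threshold (limma, Benjamini-Hochberg adjusted p under 0.05 over all genes). Over all genes 142 rose and 344 fell, or 229 and 341 after TMM scaling. In all, 24 members were higher and 19 lower, where 63.1% of all genes were lower, with a median log2 fold change of 0.05 beside -0.09 over all genes. DESeq2 called 5 members lower and 1 higher, beside 6.12% and 4.36% of all genes, and the quasi-likelihood test of edgeR 3 lower and 0 higher, beside 2.38% and 1.43%. Counted by unadjusted p under 0.05, 2 members were higher and 5 lower, where 6.25% of all genes were higher and 14.6% lower.

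Hspg2 encodes perlecan, the large heparan sulfate proteoglycan of basement membranes (chromosome 4, 137468769 to 137570630, plus strand, GRCm38). It had 9090.3, 7238, 7567 and 8719 normalised reads in knockout samples and 13755, 15511, 15692 and 15449.7 in wild-type samples. All knockout samples lay below all wild-type samples, by a wide gap. The log2 fold change was -0.89 ± 0.11 (SE, n = 4 and 4, limma adjusted p = 0.00557), and the knockout mean was 0.540 times the wild-type mean. Hspg2 was the member of smallest p and kept its call with each sample left out, with log2 fold changes from -0.95 to -0.84.

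Col18a1, the basement membrane collagen whose C-terminal fragment is endostatin (chromosome 10, 77052178 to 77166548, minus strand), had 3578, 3772, 3464 and 3479.6 normalised reads in knockout samples and 5911, 6281, 4567 and 5514 in wild-type samples. The groups did not overlap, and the knockout samples lay within a narrow band. Its log2 fold change was -0.63 ± 0.12 (SE, n = 4 and 4, limma adjusted p = 0.0221).

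Col6a1 encodes a chain of type VI collagen, which forms beaded filaments around adipocytes (chromosome 10, 76708792 to 76726168, minus strand). It had 6999, 6531, 7783 and 7494 normalised reads in knockout samples and 9708, 12388, 11288 and 9509.8 in wild-type samples, again without overlap. The log2 fold change was -0.57 ± 0.12 (SE, n = 4 and 4, limma adjusted p = 0.0364). It no longer passed after TMM scaling (limma adjusted p = 0.0753) or with the replicate number as a block (limma adjusted p = 0.0817), and edgeR did not call it. Its partner chains were closer to wild type. Col6a2 averaged 9427 ± 1169 in knockout and 11152 ± 2604 in wild type (log2 fold change -0.22 ± 0.18 SE) and Col6a3 averaged 2057 ± 278 in knockout and 2424 ± 516 in wild type (-0.22 ± 0.17), with overlap in both.

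Thbs2 encodes thrombospondin 2, a matricellular inhibitor of vessel growth (chromosome 17, 14665500 to 14694235, minus strand). It had 228, 154, 199.6 and 234 normalised reads in knockout samples and 603, 359, 502 and 1136 in wild-type samples. The groups did not overlap, and wild type 4 stood well above the other wild-type samples. The log2 fold change was -1.55 ± 0.31 (SE, n = 4 and 4, limma adjusted p = 0.028). Between 1 and 6 members were called with 1 sample left out: 1 without knockout 1, 3 or 4, and 2 without wild type 3.

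**Figure D2:**
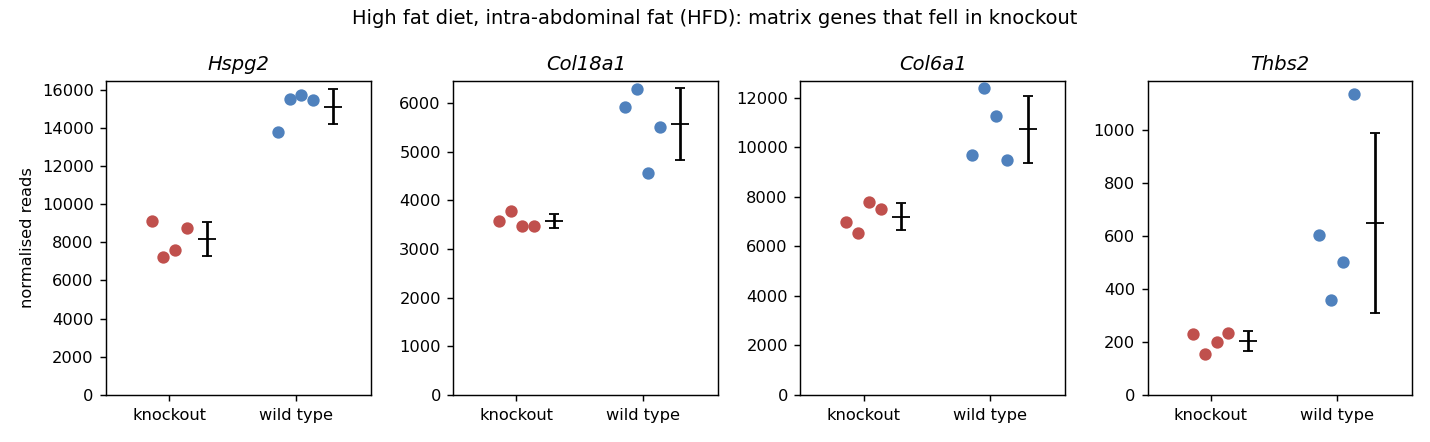
Normalised reads per sample (y axis, from 0) of the 4 matrix genes that fell in HFD, knockout left of wild type, 1 point a sample, with mean and SD in black. No knockout point reaches a wild-type point in any panel, and Hspg2 lies between 7238 and 9090.3 in knockout and between 13755 and 15692 in wild type.

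The starts of these 4 genes are shown because the genes fell together. Each line gives 300 bases around the annotated start, 5′ to 3′ along the gene (RefSeq, GRCm38.p6). Capitals mark, on either strand, the GC box GGGCGG, the CCAAT box, the TATA box TATAAA and the AP-1 motif TGANTCA.
Hspg2 (chr4:137468553-137468852, plus strand): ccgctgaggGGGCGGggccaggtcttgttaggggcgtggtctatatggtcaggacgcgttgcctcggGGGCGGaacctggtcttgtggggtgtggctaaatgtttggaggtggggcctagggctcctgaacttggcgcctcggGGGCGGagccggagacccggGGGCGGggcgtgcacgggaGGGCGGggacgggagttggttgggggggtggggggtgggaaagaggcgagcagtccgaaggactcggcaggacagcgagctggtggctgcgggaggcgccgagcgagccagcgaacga
Col18a1 (chr10:77166481-77166780, minus strand): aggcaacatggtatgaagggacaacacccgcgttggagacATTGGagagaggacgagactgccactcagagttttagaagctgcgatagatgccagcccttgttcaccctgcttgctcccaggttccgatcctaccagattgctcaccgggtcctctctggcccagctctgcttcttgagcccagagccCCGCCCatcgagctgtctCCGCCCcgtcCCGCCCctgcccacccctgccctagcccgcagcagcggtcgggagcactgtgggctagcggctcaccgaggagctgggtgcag
Col6a1 (chr10:76725995-76726294, minus strand): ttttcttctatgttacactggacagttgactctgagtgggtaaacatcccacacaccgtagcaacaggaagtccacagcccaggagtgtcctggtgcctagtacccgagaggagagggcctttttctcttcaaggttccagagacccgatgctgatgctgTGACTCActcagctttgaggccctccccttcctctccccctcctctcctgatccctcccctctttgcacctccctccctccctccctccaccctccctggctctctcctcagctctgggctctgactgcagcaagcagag
Thbs2 (chr17:14694213-14694512, minus strand): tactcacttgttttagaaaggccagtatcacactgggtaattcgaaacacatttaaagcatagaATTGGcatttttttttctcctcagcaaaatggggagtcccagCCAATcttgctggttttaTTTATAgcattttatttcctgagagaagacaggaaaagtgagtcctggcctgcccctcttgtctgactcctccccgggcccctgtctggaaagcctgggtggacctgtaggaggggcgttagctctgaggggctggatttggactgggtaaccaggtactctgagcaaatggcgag
No motif searched lay in all 4 windows. Hspg2 holds the GC box 5 times and Col18a1 holds it 3 times on the opposite strand, while Col6a1 and Thbs2 hold none, and 35.7% of all 32851 windows hold at least 1. Col6a1 has 1 match to the AP-1 motif, found in 7.81% of windows. Thbs2 has CCAAT on both strands and Col18a1 has it on the opposite strand (37.4% of windows). Thbs2 also has the TATA box on the opposite strand (13.6%). A further motif, CAGACA, was searched on both strands and is not in capitals. It lies in the Thbs2 window, 2 times on the opposite strand, in 8 of the 28 members with a window and in 21% of all windows. Windows were found for 28 of the 43 members. Of these members 18 hold the GC box in any window, 13 the CCAAT box, 5 the TATA box and 3 the AP-1 motif. Such counts are of members, while the percentages are of single windows, so the 2 differ in unit.

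The remaining classes of HFD held no further call by limma, while DESeq2 also called Sparc lower and Lum higher. Of the 6 fibrillar collagens 4 were higher and 2 lower. Col1a1 averaged 6012 ± 2181 in knockout and 4119 ± 1587 in wild type (log2 fold change 0.53 ± 0.33 SE), and Col1a2, Col3a1, Col5a1, Col5a2 and Col5a3 lay between -0.30 and 0.44. Of the 10 basement membrane genes 2 fell, Hspg2 and Col18a1, and the 2 type IV chains stayed near wild type at 0.05 ± 0.18 for Col4a1 and -0.02 ± 0.17 for Col4a2. The laminin chains Lama4, Lamb1 and Lamc1, the nidogens Nid1 and Nid2, which link laminin to type IV collagen, and Col15a1 lay between -0.19 and 0.32. Of the matricellular genes, Sparc had 53256, 57675, 70539.9 and 69048 normalised reads in knockout samples and 76217, 80238, 87317 and 84904 in wild-type samples. Its groups did not overlap, and with a log2 fold change of -0.40 ± 0.14 (SE) it did not pass (limma adjusted p = 0.141). In all, 5 members had every knockout sample below every wild-type sample, beside 10% of all genes, and 0 had every knockout sample above, beside 4.04%.

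The members with the highest HFD values in knockout relative to wild type did not pass limma. All 4 small leucine-rich proteoglycans, which coat collagen fibrils, were higher, with a median of 0.54. Lumican (Lum) had 917, 508, 926 and 918 normalised reads in knockout samples and 629, 539.5, 496 and 451 in wild-type samples, so that knockout 2 lay within the wild-type range and the other 3 knockout samples above it (0.60 ± 0.20 SE, limma adjusted p = 0.138). Fmod, fibromodulin, had 0.81 ± 0.47, Dcn 0.49 ± 0.27 and Bgn, biglycan, 0.04 ± 0.18. The proteases Mmp2 (0.43 ± 0.22), Mmp3 (0.72 ± 0.34) and Mmp14 (0.12 ± 0.21) and the inhibitors Timp1 (0.65 ± 0.39) and Timp2 (0.22 ± 0.25) were also higher without passing, and Timp3 was lower (-0.35 ± 0.19). The cross-linking enzyme Loxl1 had 0.40 ± 0.18, and Lox, Loxl2, Eln and Fbn1 lay between -0.22 and 0.37. Fn1 (0.39 ± 0.33), Tnc (0.21 ± 0.19), Thbs1 (-0.81 ± 0.44), Postn (-0.25 ± 0.16), Tnxb (-0.24 ± 0.15), Col8a1 (0.53 ± 0.24) and Col12a1 (-0.75 ± 0.35) overlapped between groups. Knockout 2 was the lowest of all 8 samples for 18 of the 43 members. Without it 28 members were higher and 15 lower, where 61.4% of all genes were lower. Then 12 were higher at unadjusted p under 0.05, beside 7.01% of all genes, 5 were lower, beside 12.8%, and 2 rose and 2 fell by limma, beside 0.623% and 1.23%.

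Markers of other cells were read beside these values. Of 10 endothelial markers 9 were lower in knockout and 0 passed, with summed levels of 15918 to 20451 in knockout and 17042 to 28836 in wild type. Of 12 macrophage markers 10 were higher and 0 passed (18085 to 18716 in knockout and 11364 to 21632 in wild type), and of 12 fibroblast and progenitor markers 6 were higher and 6 lower (8022 to 10123 in knockout and 8429 to 11495 in wild type). None of these 3 lists had a marker at 0. All 8 mesothelial markers were higher and 0 passed (2011 to 8513 in knockout and 1578 to 4918 in wild type), with knockout 1 highest. The part of these cells in the matrix values was not tested.

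Among 148 other matrix genes tested in HFD, from a list of 175, 5 fell, beside 2.45% of all genes. Adamtsl2, a fibrillin-binding protein, had 61.4, 34.9, 87.8 and 74.2 normalised reads in knockout samples and 225, 261, 246 and 339 in wild-type samples, without overlap (log2 fold change -2.09 ± 0.26 SE, limma adjusted p = 0.00532). The leucine-rich glycoprotein Prelp averaged 10544 ± 2676 in knockout and 20567 ± 3137 in wild type (-0.99 ± 0.21, limma adjusted p = 0.0386). The collagen hydroxylases P4ha2 (-0.60 ± 0.13) and Plod1 (-0.54 ± 0.10) and the urokinase gene Plau (-0.37 ± 0.08) also fell, with limma adjusted p of 0.0389, 0.0249 and 0.0467.

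In intra-abdominal fat on chow (CD) 0 of 42 members passed limma, as did 0% of all 15617 genes, and edgeR called 0. The values nevertheless lay mostly lower in knockout, with 32 members lower and 10 higher and a median log2 fold change of -0.17 beside 0.11 over all genes, of which 38.3% were lower. At unadjusted p under 0.05, 8 members were lower and 0 higher, beside 2.41% and 7.24% of all genes. DESeq2 called 8 members lower and 0 higher, beside 2.23% and 3.84% of all genes, and they were Col1a2, Col6a1, Col6a3, Fn1, Thbs2, Dcn, Mmp2 and Timp2. On its scaling the median over all genes was -0.02 and that of the members -0.38, with 38 members lower. In 7 members every knockout sample lay below every wild-type sample, beside 4.57% of all genes. All these counts and calls take the nearly alike knockout 1 and 2 as separate samples, and DESeq2 was not run with them merged.

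Col6a3 had 771, 676 and 1052 normalised reads in knockout samples and 1137, 1564 and 1258 in wild-type samples. All 3 knockout samples lay below all 3 wild-type samples (log2 fold change -0.68 ± 0.22 SE, n = 3 and 3, limma adjusted p = 0.504). Fn1, fibronectin, which binds integrins and collagen, had 1383, 1318 and 1362 normalised reads in knockout samples and 3681, 5273 and 1724 in wild-type samples. The knockout samples were close together below a broad wild-type range (-1.25 ± 0.40, limma adjusted p = 0.504).

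Col18a1 had 1496, 1574 and 1224 normalised reads in knockout samples and 3089, 2472 and 1757 in wild-type samples (-0.74 ± 0.24, limma adjusted p = 0.504). Timp2, an inhibitor that also takes part in the activation of Mmp2, had 3148, 3032 and 3444 normalised reads in knockout samples and 4066, 4356 and 4471 in wild-type samples (-0.42 ± 0.14, limma adjusted p = 0.504). In both genes the groups did not overlap. Without overlap and lower in knockout were also Col6a1 (-0.86 ± 0.29), Col1a2 (-0.46 ± 0.16) and Thbs2 (-2.11 ± 0.73). In Thbs2 wild type 1 stood at 1674 normalised reads and the other wild-type samples at 275 and 259.6, above knockout values of 101, 115 and 125.

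By class, all 6 fibrillar collagens of CD were lower, from -0.56 for Col1a1 to -0.03 for Col5a1, as were all 4 small leucine-rich proteoglycans, from -1.07 for Fmod to -0.48 for Bgn. All 3 inhibitors were lower too, Timp3 at -0.04. The 10 basement membrane genes had a median of -0.02, with Col4a1 at 0.10 ± 0.23 and Hspg2 at -0.54 ± 0.30. Mmp2 had -1.12 ± 0.40 and Mmp14 0.03 ± 0.12. Loxl1 had the highest log2 fold change of the tested members, 0.49 ± 0.32. The other members overlapped between groups.

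This lower level in CD rested in part on wild type 1, which was the highest of the 6 samples for 25 members. Without it 19 of 42 members were lower and the median was 0.03, where 37.4% of all genes were lower with a median of 0.12. Then 4 were lower at unadjusted p under 0.05, beside 1.74% of all genes. With knockout 1 and 2 counted as 1 sample 29 were lower but 1 at unadjusted p under 0.05. Without knockout 1, knockout 2 and wild type 2 together, which leaves 1 knockout and 2 wild-type samples, 32 were lower with a median of -0.21, where 36.6% of all genes were lower. In 19 of them the groups then did not overlap, beside 22.6% of all genes, and 1 was lower at unadjusted p under 0.05, beside 1.79%. On these 3 samples DESeq2 called 1 member lower (Fmod) and 0 higher, beside 0.557% and 0.519% of all genes. All 12 macrophage markers were lower in knockout and 0 passed (8583 to 11051 in knockout and 9984 to 22288 in wild type, none at 0), with wild type 1 highest. The sum of 12 fibroblast and progenitor markers was 7894 to 10714 in knockout and 6201 to 10173 in wild type. Mast cell markers summed to 393 to 624 in knockout and 844 to 1026 in wild type, without overlap, and of 5 tested 4 were lower, each at unadjusted p under 0.05, with 0 passing and Ms4a2 at 0 in knockout 1. All 8 mesothelial markers (376 to 1502 in knockout and 664 to 5837 in wild type) and all 8 B cell markers (107 to 242 in knockout and 88.3 to 2578 in wild type) were lower as well, with 0 passing and none at 0. All 10 endothelial markers were instead higher (17858 to 37201 in knockout and 9558 to 25855 in wild type). Of 10 adipocyte markers 8 were higher and 2 lower (649465 to 990950 in knockout and 258090 to 769726 in wild type). In both of these lists 0 passed and none was at 0. The part of these cells was not tested. Of 160 other matrix genes tested in CD 0 passed limma. Among them 15 were lower and 2 higher at unadjusted p under 0.05, beside 2.41% and 7.24% of all genes.

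In the Epi samples of whole intra-abdominal fat, 39 of 43 members had lower values in knockout and 4 higher, where 53.1% of all 17685 genes were lower. The median log2 fold change was -0.48 beside -0.03 over all genes. In 21 members every knockout sample lay below every wild-type sample, beside 9.14% of all genes, and in 0 members above, beside 7.32%. No single member passed limma (0 of 43, beside 0% of all genes) or edgeR, 19 were lower and 0 higher at unadjusted p under 0.05 (5.72% and 3.47% of all genes), and DESeq2 called 12 lower and 0 higher (1.82% and 1.20%). The 12 were Col5a2, Col5a3, Col6a1, Col6a2, Col6a3, Col8a1, Col12a1, Col15a1, Fbn1, Lox, Sparc and Postn.

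Fbn1 encodes fibrillin 1, the backbone of microfibrils. It had 7118, 10709 and 10489 normalised reads in knockout samples and 16061, 20303 and 18819.8 in wild-type samples. All knockout samples lay below all wild-type samples (log2 fold change -0.98 ± 0.20 SE, n = 3 and 3, limma adjusted p = 0.334). Of its transcript 20.4% overlaps exons of Gm9913, whose reads cannot be told apart here.

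Lox, the lysyl oxidase that starts the cross-linking of collagen and elastin, had 2415, 2672 and 2954 normalised reads in knockout samples and 3939, 3834 and 4505 in wild-type samples. The samples of each group lay close together and apart from the other group (-0.61 ± 0.13, limma adjusted p = 0.34). Col12a1, a fibril-associated collagen, had 237, 466 and 348 normalised reads in knockout samples and 741, 1088 and 2115 in wild-type samples. It had the lowest log2 fold change of the 43, -1.82 ± 0.42 (limma adjusted p = 0.352), with wild type 3 far above the rest.

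Col15a1, a collagen that bridges basement membrane and stroma, had 28193, 33255 and 33354 normalised reads in knockout samples and 43878, 53683 and 54868 in wild-type samples without overlap (-0.68 ± 0.17, limma adjusted p = 0.371). Among the type VI chains, Col6a1 had 15315, 27538 and 20033 normalised reads in knockout samples and 35924, 35823 and 71121 in wild-type samples. Col6a2 and Col6a3 showed the same order of groups, with no overlap in any of the 3 chains. Their log2 fold changes were -1.15 ± 0.34, -1.07 ± 0.28 and -1.0 ± 0.27 for Col6a1, Col6a2 and Col6a3. The matricellular Sparc had 146497, 201391 and 200386 normalised reads in knockout samples and 305724, 267502 and 332250.0 in wild-type samples (-0.73 ± 0.23), also without overlap.

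**Figure D3:**
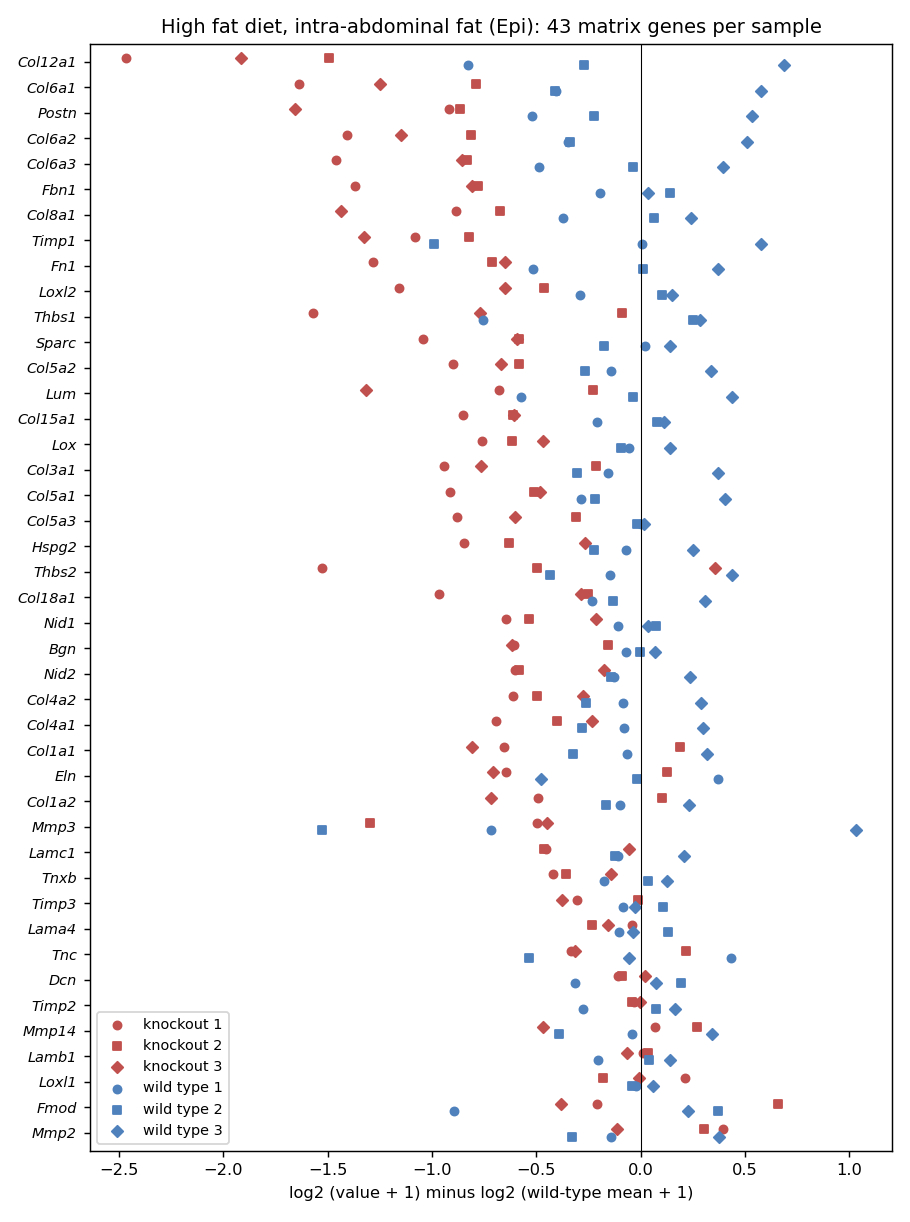
Level of each of the 43 matrix genes in each Epi sample relative to the wild-type mean (x axis, log2 of value + 1), genes ordered by log2 fold change with the lowest on top, knockout in red and wild type in blue. Knockout points lie left of the wild-type points for Col12a1, Col6a1, Postn, Col6a2, Col6a3 and Fbn1 at the top, and the groups mix for Loxl1, Fmod and Mmp2 at the bottom.

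By class, all 6 fibrillar and all 5 other collagens of Epi were lower, the fibrillar ones from -0.69 for Col5a2 to -0.36 for Col1a2 and the others from -1.82 to -0.97 for Col8a1. Of 10 basement membrane genes 9 were lower, among them Hspg2 (-0.57 ± 0.21), Nid1 (-0.46 ± 0.18), Nid2 (-0.44 ± 0.17), Col18a1 (-0.48 ± 0.25), Col4a1 (-0.42 ± 0.23) and Col4a2 (-0.44 ± 0.21), and the laminins Lama4, Lamb1 and Lamc1 lay between -0.32 and 0.00120. All 7 adhesive and matricellular genes were lower, with Postn, periostin, at -1.08 ± 0.33, Fn1 at -0.84 ± 0.28 and Tnc, tenascin C, at -0.09 ± 0.28. Loxl2 had -0.74 ± 0.21, Eln -0.37 ± 0.30 and Loxl1 0.00731. The proteases and inhibitors lay nearer wild type, with Mmp2 at 0.23 ± 0.22, Mmp14 at -0.01 ± 0.25, Mmp3 at -0.34 ± 0.66, Timp2 at -0.01 ± 0.16 and Timp3 at -0.23 ± 0.15. Timp1 had -0.94 ± 0.41 with overlap. Among the proteoglycans Bgn had -0.46 ± 0.17, Lum -0.68 ± 0.34, Dcn -0.05 ± 0.18 and Fmod 0.12 ± 0.41.

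The direction in Epi did not turn with any sample left out, with 36 to 41 members lower each time. Wild type 3 was the highest of the 6 samples for 33 members. Without it 36 members were lower, 13 of them at unadjusted p under 0.05, with a median of -0.41, and 21 did not overlap, beside 12% of all genes. Leaving out knockout 2 and 3, which carried epididymis markers, kept knockout 1 alone, itself the lowest of the 6 samples for 23 members. On this 1 knockout sample 39 members were lower with a median of -0.67, where 56.3% of all genes were lower. In 33 of them the groups then did not overlap, beside 31.7% of all genes, 20 were lower at unadjusted p under 0.05, beside 5.94%, and DESeq2 called 17 lower and 0 higher, beside 4.98% and 1.71%.

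The summed macrophage markers of Epi were 57112 to 70349 in knockout and 55217 to 122621 in wild type, with wild type 3 highest, and 9 of 12 were lower with 0 passing. The summed 12 fibroblast and progenitor markers were 34377 to 34814 in knockout and 35728 to 42195 in wild type, so these groups did not overlap, and 8 of 12 were lower with 0 passing. Neither list had a marker at 0. Mesothelial markers summed to 7668 to 10746 in knockout and 6009 to 17399 in wild type, with 7 of 8 lower. Of 10 endothelial markers 8 were higher and 2 lower (70460 to 79052 in knockout and 67012 to 81990 in wild type). Of 10 adipocyte markers 9 were higher and 1 lower (1519380 to 2809610 in knockout and 1467020 to 1925360 in wild type). In both of these lists 0 passed. The part of these cells in the matrix values was not tested. Of 164 other matrix genes tested in Epi 0 passed limma. Among them 22 were lower and 5 higher at unadjusted p under 0.05, beside 5.72% and 3.47% of all genes.

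In intra-abdominal adipocytes (Adipo) 1 of 42 members rose and 0 fell, beside 0.540% and 0.0912% of all 14248 genes. The members split in this table, with 22 higher and 20 lower, where 53.3% of all genes were lower, and a median log2 fold change of 0.18 beside -0.04 over all genes. At unadjusted p under 0.05, 10 were higher and 9 lower, beside 11.3% and 12.8% of all genes. In 11 members every knockout sample lay above every wild-type sample and in 11 below, beside 20.7% and 27.3% of all genes. With 2 knockout samples a gap between the groups is common, as these shares show.

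The member that rose was Eln, elastin, the core of elastic fibres (chromosome 5, 134702593 to 134747323, minus strand). It had 1032 and 1094 normalised reads in knockout samples and 233, 177 and 347 in wild-type samples. Both knockout samples lay far above the wild-type samples (log2 fold change 2.13 ± 0.29 SE, n = 2 and 3, limma adjusted p = 0.0498), close to the threshold, and leaving out any sample other than wild type 3 ended the call. Timp3, which binds to the matrix itself, had 11324 and 5238 normalised reads in knockout samples and 1265, 814 and 1599 in wild-type samples (2.70 ± 0.41, limma adjusted p = 0.0627). The groups did not overlap. Of the Timp3 transcript 36.7% overlaps exons of Syn3, so its value is uncertain where counting did not use the strand.

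The type VI collagen chains had lower values in knockout. Col6a2 had 14182 and 19578 normalised reads in knockout samples and 38578, 32670.1 and 48611 in wild-type samples (-1.24 ± 0.25, limma adjusted p = 0.0832). Col6a3 had 3292 and 4122 normalised reads in knockout samples and 6839, 9625 and 12384 in wild-type samples (-1.34 ± 0.27, limma adjusted p = 0.0847). The third chain, Col6a1, had -1.41 ± 0.35. All 3 were lower in both knockout samples than in all wild-type samples and did not pass. DESeq2 called all 3 lower, among 7 members lower and 8 higher, beside 5.49% and 7.18% of all genes, and edgeR called Eln and Timp3 higher, beside 1.07% of all genes.

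The members with lower values in adipocytes were otherwise Col12a1 (-1.81 ± 0.42), Lox (-1.02 ± 0.38), Sparc (-0.97 ± 0.27), Col18a1 (-0.82 ± 0.34), Hspg2 (-0.68 ± 0.31), Col5a1 (-0.55 ± 0.23), Col5a2 (-0.63 ± 0.20), Col15a1 (-0.58 ± 0.24), Nid2 (-0.56 ± 0.16), Lum (-0.62 ± 0.42) and Timp1 (-0.55 ± 1.08). Col5a3, Nid1, Col4a1, Col4a2, Thbs2 and Tnxb lay between -0.48 and -0.02. Higher were Thbs1 (2.14 ± 0.44), an activator of latent TGF-beta, Fmod (2.19 ± 0.62), Col8a1 (2.07 ± 0.67), Mmp14 (1.78 ± 0.67), Postn (1.58 ± 0.75), Tnc (1.55 ± 0.74), Mmp2 (1.54 ± 0.84), Timp2 (1.53 ± 0.72), Fbn1 (1.35 ± 0.40), Fn1 (1.24 ± 0.64) and Col1a2 (1.06 ± 0.44). Loxl2, Col3a1, Dcn, Lamb1, Lama4, Col1a1, Bgn, Loxl1 and Lamc1 lay between 0.10 and 0.96. None of these passed limma.

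Markers of other cells also differed between the Adipo groups. All 10 endothelial markers were higher in knockout and 0 passed, with summed levels of 18610.2 to 43049 in knockout and 2618 to 4821 in wild type. Of 11 fibroblast and progenitor markers tested 10 were higher (5739 to 9178 in knockout and 3555 to 4781 in wild type), and all 8 mesothelial markers were (1081 to 1665 in knockout and 136 to 679 in wild type). None of these 3 lists had a marker at 0 in any sample. Macrophage markers were 11826 and 4741 in knockout samples 1 and 2 and 2659, 2085 and 23459 in wild type 1, 2 and 3. Summed smooth muscle and pericyte markers were lower in knockout without overlap, at 13890 to 14522 against 20811 to 33644 in wild type. Of these 8 markers 5 were higher and 3 lower, with 0 passing and Cnn1 at 0 in a sample. The part of these cells was not tested. Without wild type 3 there were 9 members that rose and 3 that fell, and the median was 0.43, beside 3.93% and 1.15% of all genes and a median over all genes of -0.04.

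Of 142 other matrix genes tested in Adipo 0 fell by limma, beside 0.0912% of all genes. Among them 15 were lower at unadjusted p under 0.05, beside 12.8%. Ltbp4, a latent TGF-beta binding protein that also takes part in elastic fibre assembly, had 5056 and 2965 normalised reads in knockout samples and 729, 513 and 850.3 in wild-type samples (log2 fold change 2.50 ± 0.31 SE, limma adjusted p = 0.0425). It rose, and the groups did not overlap. At unadjusted p under 0.05, 44 of the 142 were higher, beside 11.3% of all genes.

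The effect of genotype was then compared between adipocytes and whole fat of the same age, Adipo minus Epi, as an interaction in 1 limma fit over both tables, and 3 members passed, beside 1.66% of 14174 genes, all 3 with the higher effect in Adipo (1.62% of all genes higher and 0.0353% lower). At unadjusted p under 0.05, 14 members were higher and 0 lower, beside 8.98% and 4.52% of all genes. The 3 that passed had higher values in knockout adipocytes and lower values in knockout whole fat. For Timp3 the log2 fold change was 2.70 in Adipo and -0.23 in Epi, a difference of 2.94 ± 0.45 (SE, limma adjusted p = 0.0174). For Eln the difference was 2.49 ± 0.45 (limma adjusted p = 0.0288) and for Fbn1 2.33 ± 0.46 (limma adjusted p = 0.0393). Deviations of samples of the same number had correlations of 0.106 to 0.595 between the 2 tables. With the number as a block Timp3 kept its call (2.86 ± 0.47, limma adjusted p = 0.0384), Thbs1 passed (2.89 ± 0.23, limma adjusted p = 0.00816), and Eln and Fbn1 did not (limma adjusted p = 0.0606 and 0.0628). Without Epi knockout 2 and 3, which carried epididymis markers, none of the 3 and no other member passed, with differences of 3.01 for Timp3, 2.73 for Eln and 2.71 for Fbn1 (limma adjusted p = 0.112, 0.107 and 0.135), and 0.0776% of all genes were called higher. Then 10 members were higher and 0 lower at unadjusted p under 0.05, beside 8.29% and 6.81% of all genes. For type VI collagen, lower in knockout in both tables, the difference was -0.27 ± 0.54 for Col6a1, -0.18 ± 0.41 for Col6a2 and -0.34 ± 0.42 for Col6a3, none passing. Of 10 endothelial markers 7 passed the same difference, all higher, and their part in the matrix values was not tested.

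**Figure D4:**
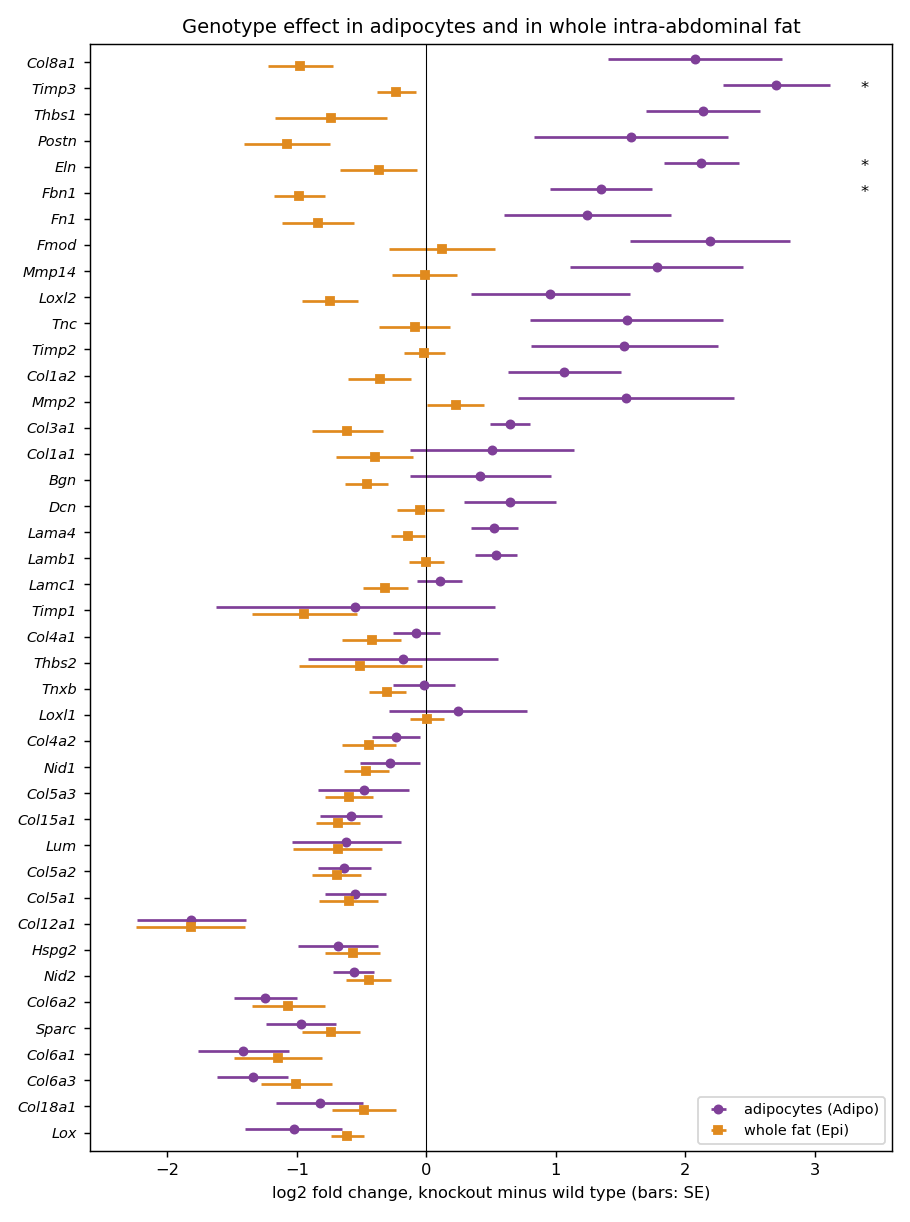
Log2 fold change of knockout minus wild type (x axis, bars show SE) for 42 matrix genes in adipocytes (purple circles) and in whole intra-abdominal fat (orange squares), ordered by their difference, with an asterisk where the difference passed. Timp3, Eln and Fbn1 carry the asterisk, and the 3 type VI chains near the bottom lie left of 0 in both.

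In inguinal fat of the beta-adrenergic series (BA) 0 of 43 members passed limma, beside 0.0322% of all 12418 genes, and edgeR called 0. The values were split, 24 higher and 19 lower, where 48.7% of all genes were lower, with a median log2 fold change of 0.06 beside 0.0064 over all genes. At unadjusted p under 0.05, 1 member was higher and 2 lower, beside 5.62% and 3.41% of all genes. In 1 member every knockout sample lay above every wild-type sample and in 1 below, beside 3.26% and 2.22% of all genes.

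Col5a3, a chain of type V collagen, had 9452, 9644, 14285 and 10610.2 normalised reads in knockout samples and 8748, 5919.6, 6876 and 5272 in wild-type samples. All knockout samples lay above all wild-type samples (log2 fold change 0.72 ± 0.21 SE, n = 4 and 4, limma adjusted p = 0.272), and DESeq2 called it and no other member, beside 1.41% of all genes called higher. Lox had 342, 312, 351 and 329.9 normalised reads in knockout samples and 407, 354, 524 and 419 in wild-type samples, with all knockout samples lower (-0.34 ± 0.13, limma adjusted p = 0.455).

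Col6a3 had 1925, 1552, 1593 and 1569.6 normalised reads in knockout samples and 2299.9, 2132, 2205 and 1702 in wild-type samples, with knockout 1 above wild type 4 (-0.32 ± 0.14, limma adjusted p = 0.528). Tnc had 41.2, 118, 123 and 103 normalised reads in knockout samples and 50.8, 71.0, 36.6 and 58.1 in wild-type samples, with knockout 1 low and the other 3 above all wild-type samples (0.74 ± 0.34, limma adjusted p = 0.564). Thbs1 had 0.59 ± 0.29 with overlap. The other 38 members lay between -0.28 and 0.31, among them Col6a1 (-0.13 ± 0.15), Hspg2 (-0.04 ± 0.21), Col18a1 (-0.12 ± 0.22), Sparc (0.31 ± 0.24), Col1a1 (0.14 ± 0.24), Mmp2 (-0.09 ± 0.21), Mmp3 (-0.03 ± 0.22), Timp1 (0.06 ± 0.29) and Timp3. Of 140 other matrix genes tested in BA 0 passed limma. Among them 12 were higher and 4 lower at unadjusted p under 0.05, beside 5.62% and 3.41% of all genes. Summed fibroblast and progenitor markers were 4598 to 6072 in knockout and 5153 to 6597 in wild type, and summed adipocyte markers 444071 to 661916 in knockout and 374155 to 445322 in wild type, and their part was not tested.

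**Figure D5:**
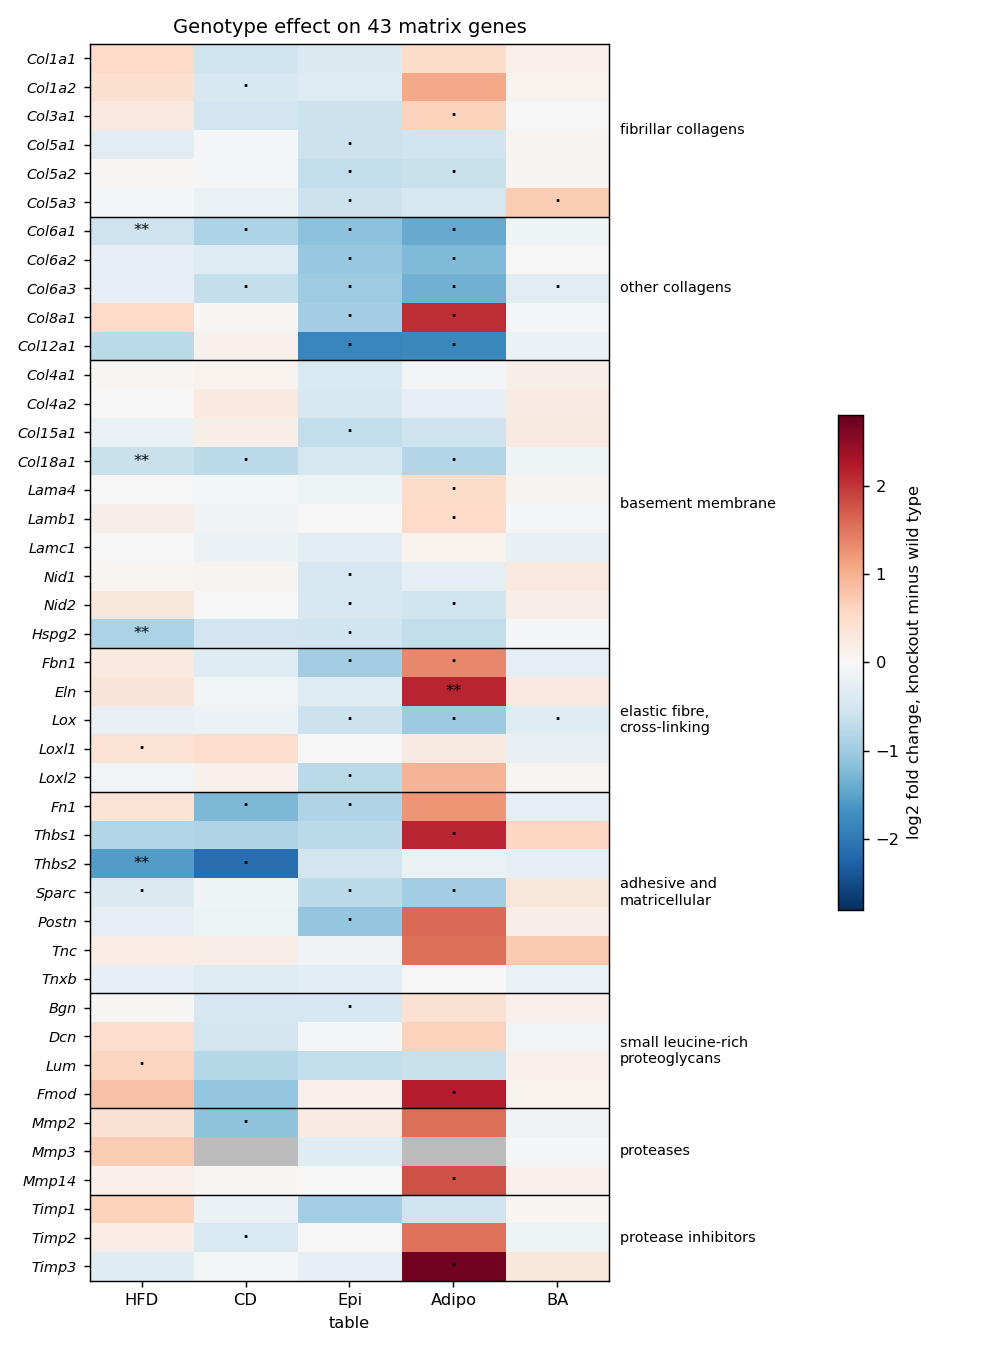
Log2 fold change of knockout minus wild type for each of the 43 matrix genes (rows, by class) in the 5 tables (columns), red higher and blue lower in knockout, grey not tested, with 2 asterisks for an adjusted p under 0.05 and a dot for an unadjusted p under 0.05. The type VI chains are blue in HFD, CD, Epi and Adipo, and the Adipo column alone is dark red for Eln, Timp3, Thbs1 and Fmod.

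In all 5 tables together, 7 of the 42 members tested in each were lower in knockout every time, Col6a1, Col6a3, Col18a1, Hspg2, Lox, Thbs2 and Tnxb, or 16.7%, beside 5.80% of 11860 genes. None (0%) was higher in all 5, beside 4.65%. In the 3 tables of whole intra-abdominal fat, which share no samples, 15 of 42 members (35.7%) were lower each time, beside 14.6% of all genes, and 1, Loxl1, was higher, beside 11.7%. Most of these values did not pass in any table. Col6a1 had log2 fold changes of -0.57 in HFD, -0.86 in CD, -1.15 in Epi, -1.41 in Adipo and -0.13 in BA, of which the first passed. Hspg2 had -0.89, -0.54, -0.57, -0.68 and -0.04 in the same order.

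Whether the effect of genotype differed between diets was tested as an interaction, and 0 members passed limma in HFD minus CD or in Epi minus CD, as did 0% of all genes. At unadjusted p under 0.05, 6 members had a higher and 0 a lower effect in HFD than in CD (3.30% and 14.1% of all genes). For Epi minus CD the counts were 1 and 2 (1.97% and 6.37%). The smallest p in HFD minus CD belonged to Mmp2 (1.55 ± 0.46, limma adjusted p = 0.184), Lum (1.39 ± 0.45) and Fn1 (1.64 ± 0.56), all lower in CD knockout and higher in HFD knockout. In Epi minus CD they belonged to Mmp2 (1.35 ± 0.49, limma adjusted p = 0.55), Col15a1 (-0.85 ± 0.37) and Postn (-0.93 ± 0.42). Without the CD and Epi libraries that stood apart 0 members passed either difference. Then 3 were higher and 0 lower in HFD minus CD at unadjusted p under 0.05 (1.91% and 8.35% of all genes), and 0 higher and 2 lower in Epi minus CD (0.737% and 2.84%). Ages and numbers of samples differ between HFD and CD, and diet and age cannot be told apart there.

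Ratios between chains of 1 protein were read within a sample, per kb, and were not tested. Col1a1 over Col1a2, Col6a3 over Col6a2 and Lamb1 over Lamc1 overlapped between the groups in every table. The 2 ratios with a gap in some table follow, with no share over all genes to set beside them. A gap is common with 2 knockout samples in Adipo or with CD knockout 3 alone. Col6a1 over Col6a2 was 0.686 to 0.775 in HFD knockout and 0.839 to 1.09 in HFD wild type, and 0.875 to 0.931 in CD knockout and 1.20 to 1.40 in CD wild type, without overlap in either table. In CD knockout 3 it was 0.931, and in CD wild type 1 and 3, which carried few epididymis markers, 1.23 and 1.20. It was 0.740 to 0.882 in Epi knockout and 0.824 to 0.910 in Epi wild type, with overlap. In Adipo and BA the 2 groups overlapped as well. Col4a1 over Col4a2 was 1.45 to 1.55 in HFD knockout and 1.39 to 1.46 in HFD wild type, and 1.39 to 1.58 in Epi knockout and 1.46 to 1.49 in Epi wild type, overlapping in both. In CD it was 1.22 to 1.30 in knockout and 1.32 to 1.63 in wild type, lower without overlap also in knockout 3 (1.22) against wild type 1 and 3 (1.34 and 1.32), and in Adipo 1.45 to 1.65 in knockout and 1.28 to 1.44 in wild type, higher without overlap. In BA it was 1.42 to 1.58 in knockout and 1.53 to 1.72 in wild type, with overlap. These 2 chains of type IV collagen lie head to head and their promoter windows share 78 bases, shown because both windows hold them (RefSeq, GRCm38.p6, chr8:11312777-11312854, plus strand, GGGCGG in capitals).
Col4a1 and Col4a2: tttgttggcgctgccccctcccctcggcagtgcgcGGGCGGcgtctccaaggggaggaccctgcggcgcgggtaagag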

How the data were processed

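RNA from mouse fat was prepared with RNeasy and TruSeq stranded mRNA kits, per the labels' protocols. The deposited values are signal per Ensembl transcript, which the authors made, as the values show, by dividing reads by 1 size factor per library, and whole reads were recovered, within 0.01 of a whole number, in 96 of 99 columns. Per the submitters' processing notes, STAR 2.4.0k and HTSeq 0.5.3 are among the tools, with DESeq 1.8.3, bcl2fastq 2.17 and SAMtools, on GRCm38.p4, and no roles are given. No source used here says whether strand entered the counting. Here 1 transcript per gene, the one of highest mean, was kept, and the 4 libraries of a replicate were averaged in HFD, CD and BA. Knockout and wild type were compared within each of the 5 tables, which were normalised separately, with limma 3.58.1 (trend and robust moderation, R 4.3.3) on log2(value + 1) over genes with a mean of at least 10. P-values were adjusted by Benjamini-Hochberg over all genes tested, with a threshold of 0.05, and log2 fold changes are on that scale, which understates changes of low genes. EdgeR 4.0.16 and DESeq2 1.42.0 on recovered reads, TMM scaling, other filters and pseudocounts, a replicate block and left-out samples were alternatives. The fits were tested on simulated data with independent samples and the same spread for all genes. That test does not show how they behave with nearly alike samples or libraries that stood apart. Differences of effect between tables are interaction terms. Deviations of samples of the same number in Adipo and Epi had correlations of 0.106 to 0.595, so the blocked value is given beside that difference. No label says that replicates are separate animals, and p-values then measure only the spread between these samples. Within a table every member that passed was described, with others up to 4 by smallest p. The members and gene lists were chosen with earlier results of these data known. A wild-type column of the Adipo table that matches no sample (1 in all) was not used. A result among the other matrix genes is not reported here.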

Additional observations from a re-analysis of the deposited data

Results flagged for a closer look

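Of 172 groups of 4 samples examined, 1 for each member and genotype in HFD and BA, 16 held a sample far from the other 3, and chance flags about 5% of groups. In HFD 7 of the 16 were knockout 2, each time below the other knockout samples, with 1642 normalised reads for Col6a3, 104 for Col8a1, 25990.5 for Col4a1, 1509.9 for Fbn1, 872 for Eln, 125 for Tnc and 508 for Lum. Wild type 1 was low for Hspg2 with 13755 and wild type 4 low for Tnc with 145.

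In BA 4 were knockout 1, which was above the other knockout samples with 1925 for Col6a3, 1605 for Col18a1 and 257 for Thbs2, and below them with 41.2 for Tnc. Wild type 2 was low for Fn1 with 543, wild type 1 high for Mmp14 with 793 and wild type 4 low for Timp1 with 9.78.

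The effect of genotype differed between adipocytes and whole fat, Adipo minus Epi, by 2.94 for Timp3, 2.49 for Eln and 2.33 for Fbn1 on the log2 scale (limma interaction). Without Epi knockout 2 and 3 none of the 3 passed.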

How the results depend on the processing

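The 4 calls in HFD became 2 with no filter and 1 without knockout 1 and wild type 1 together, and 1 to 6 with 1 sample left out. In Adipo the 1 call became 0 without trend or robust moderation, 0 with a pseudocount of 0.5, 3 with no filter, 2 by edgeR, 15 by DESeq2 and 0 to 12 with 1 sample left out. DESeq2 called 8 members in CD, 12 in Epi and 1 in BA, where limma called 0. Without the libraries that stood apart, an alternative chosen after seeing the data, it called 1 in CD and 17 in Epi, and the 3 calls of Adipo minus Epi became 0. For the pseudocount, Eln lay close to the threshold (limma adjusted p = 0.0511), and the cause of the other shifts was not tested. Under the other settings 177 counts and medians of members stayed within their margin. Of the single genes 532 values kept direction and side of the threshold, 88 no longer passed and 24 passed newly.

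With the replicate number as a block 20 members were called in Adipo, 17 higher and 3 lower, beside 7.83% and 2.08% of all genes. Wild type 3 has no partner there, so the block takes it out of the effect. That effect then rests on samples 1 and 2 of each genotype only. In HFD Col6a1 no longer passed with the block (limma adjusted p = 0.0817). Deviations of samples of the same number within a table had correlations of -0.52 to 0.53, which do not settle whether such numbers mark a pair. TMM scaling also ended the call of Col6a1 in HFD (limma adjusted p = 0.0753).

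Gps2, near 0 everywhere, turned sign. In HFD it lay between -0.037 and 0.083 with 1 sample left out. In CD it was -0.058 after TMM scaling, -0.069 by edgeR and -0.075 by DESeq2 with and without the libraries that stood apart, and -0.11 to 0.18 with 1 sample left out. In Adipo it was -0.0033 with the block and -0.0033 to 0.082 with 1 sample left out. Leaving out the third Adipo knockout sample could not be run, since it was not analysed here. With 2 to 4 samples a group, small differences were not detectable, and Mmp3 and Timp1 had few reads in several tables.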
